A study of Homo sapiens with 12 samples.

Results

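The effect of the RUNX inhibitor AI-10-104 given alone was measured in OPM-1, an established human multiple myeloma line, as the 3 RUNXi samples against the 3 DMSO samples, 6 of the 12 samples of the series. RUNXi cells received 1 μM AI-10-104 and DMSO cells the solvent, both for 48 h and without lenalidomide (LEN), and poly(A) RNA was sequenced. The other 6 samples received 0.1 μM LEN for 48 h, alone (LEN, 3 samples) or with 1 μM AI-10-104 (LEN+RUNXi, 3 samples). They are used here to look at the same genes in samples outside the groups first compared. They also enter the estimate of each gene's spread in the first comparison. The study describes the replicates as biological replicates of independent experiments in a single cell line, so the tests measure the spread between these cultures and not between patients. Members were the 11241 of 38478 genes whose mean over the 12 samples reached 0.5 RPKM, a read count scaled to the length of the gene in kilobases and to the size of the library.

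Reads counted on genes ranged from 21297486 to 31386210 in the 6 samples. The plasma cell identity of the line was seen in its defining markers: 10 of 10 had a mean above 0.5 RPKM, with summed levels of 4638 to 4884 RPKM in DMSO and 5044 to 5293 RPKM in RUNXi, of which JCHAIN, the chain that joins immunoglobulin polymers, made up most. T cell, myeloid, fibroblast and epithelial markers each had 0 of 5 above 0.5 RPKM, with summed levels of at most 0.592 RPKM in any sample and 2 of the 5 T cell markers at 0. One of 5 erythroid markers, the beta-globin gene HBB, was above this level at a mean of 19.8 RPKM, and the erythroid sum was 19.7 to 20.3 RPKM in DMSO and 18.3 to 19.6 RPKM in RUNXi. In bulk RNA, fewer cells of a kind and less RNA per cell cannot be told apart.

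RUNX1, RUNX2 and RUNX3 are DNA-binding transcription factors that work with the partner protein CBFβ, which binds no DNA itself and strengthens the binding of RUNX proteins to it. They can activate or repress their target genes, and in blood cells they control lineage genes, cytokine and receptor genes and the leukocyte integrins. AI-10-104 is a small molecule that blocks the pairing of CBFβ with RUNX proteins, so its direct point of action is a pairing of proteins.

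AI-10-104 lowered 122 genes and raised 77. To be called, a gene had to reach an adjusted p of 0.05 or lower in limma's moderated test and to differ by 0.32 or more on the log2 scale in either direction. The lowered genes were 1.09% and the raised genes 0.685% of all genes tested. In fits that left out a single DMSO or RUNXi sample, 54 lowered (44.3%) and 33 raised genes (42.9%) stayed called every time. The median log2 fold change was -0.47 over the lowered genes, with fitted values from -3.69 to -0.32, and 0.45 over the raised genes, with a range from 0.32 to 4.44. Over all 11241 genes the median was 0.01, and 47.0% had a value below 0. Most changes were small: 40 lowered genes and 18 raised genes passed 0.58, and 10 and 5 passed 1. In the plot of change against mean level, MT2A and MT1X stand apart upward, and RGS20, BMF and SDC2 are among the falls beyond 1.

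**Figure D1:**
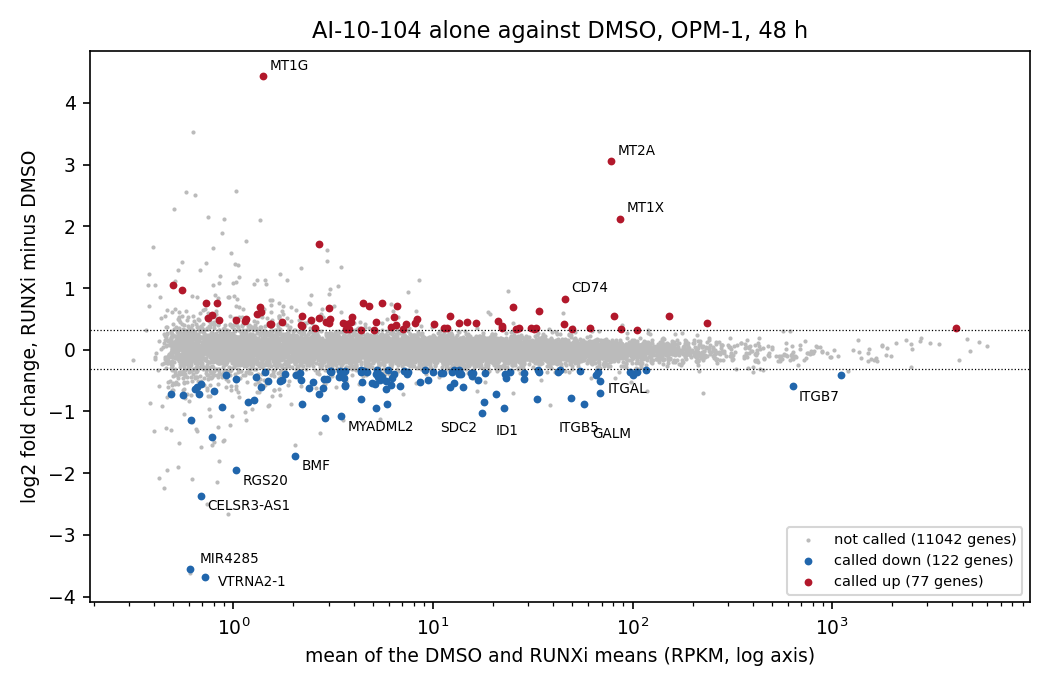
Change with AI-10-104 alone against mean level for the 11241 genes tested. The x axis is the mean RPKM on a log axis, the y axis is the log2 fold change of RUNXi over DMSO (3 samples each), and coloured points are the 77 raised and 122 lowered genes, most of which lie within 1 of 0 on the y axis.

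Among the genes that fell were regulators of signalling and of cell death. BMF, a pro-apoptotic BH3-only member of the BCL2 family (ENSG00000104081, chr15:40087890-40108892, minus strand, GRCh38), measured 3.50, 3.01 and 3.07 RPKM in DMSO replicates 1, 2 and 3 and 0.827, 0.929 and 0.949 RPKM in the RUNXi replicates. The RUNXi samples were close to each other and far below DMSO, at 28.2% of its mean (log2 fold change -1.72, SE 0.09, adjusted p = 8.91e-07, limma). BMF was the only called gene of the 11 BCL2 family genes tested, whose median was 0.07. RGS20, a GTPase-activating protein that switches off G protein signals, measured 1.41, 2.01 and 1.71 RPKM in DMSO and 0.417, 0.322 and 0.357 RPKM in RUNXi. It fell to 21.4% of DMSO (log2 fold change -1.95, SE 0.15, adjusted p = 1.87e-05), with a wider spread in DMSO than in RUNXi. DUSP5, a phosphatase that inactivates ERK in the nucleus, fell by 0.50 on the log2 scale, the only call among 23 immediate early genes tested, which had a median of -0.08, while without RUNXi replicate 2 there were 3 calls down.

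SDC2 and the integrin chains ITGB5, ITGAL and ITGB7 fell in all 3 RUNXi samples. SDC2, the heparan sulfate proteoglycan syndecan-2, measured 23.1, 23.9 and 23.7 RPKM in DMSO and 11.5, 11.2 and 11.7 RPKM in RUNXi (log2 fold change -1.03, SE 0.04, adjusted p = 3.3e-08). Its level in RUNXi was 48.8% of that in DMSO, and neither group spread by more than 1 RPKM. ITGB5, the integrin β5 chain (ENSG00000082781, chr3:124761948-124901418, minus strand), measured 64.2, 62.7 and 59.6 RPKM in DMSO and 34.9, 37.3 and 35.8 RPKM in RUNXi (log2 fold change -0.79, SE 0.04, adjusted p = 7.45e-07). ITGAL, the αL chain of the leukocyte integrin LFA-1 (ENSG00000005844, chr16:30472658-30523567, plus strand), measured 88.7, 84.1 and 82.0 RPKM in DMSO and 50.8, 51.6 and 54.0 RPKM in RUNXi (log2 fold change -0.70, SE 0.04, adjusted p = 6.19e-07). ITGB7, the β7 chain of gut-homing integrins (ENSG00000139626, chr12:53191323-53207282, minus strand), measured 796, 758 and 732 RPKM in DMSO and 482, 535 and 498 RPKM in RUNXi (log2 fold change -0.59, SE 0.04, adjusted p = 8.97e-06). The 3 integrin chains thus remained expressed at 57.9% to 66.3% of their DMSO level, without overlap between the groups. A lack of overlap was common among the 11241 genes tested. All RUNXi samples lay below all DMSO samples in 1145 of them and above in 1471. ITGB5, ITGAL and ITGB7 were the 3 lowered genes among 20 integrin and adhesion genes tested. In the same list PECAM1 (log2 fold change 0.46), ALCAM (0.35) and NECTIN1 (0.33) rose, and the list's median was 0.03. PECAM1 and ALCAM were called in the fit with all replicates and in the fit without RUNXi replicate 2 and in no other fit that left out a single sample (adjusted p from 0.0632 to 0.115 for PECAM1 and from 0.078 to 0.183 for ALCAM). NECTIN1 was not called without DMSO replicate 3 (0.28) or RUNXi replicate 1 (0.31, adjusted p = 0.0517).

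Enzymes and a regulator of transcription factors were also among the largest falls. ID1, which binds basic helix-loop-helix factors and keeps them from DNA (ENSG00000125968, chr20:31605283-31606515, plus strand), measured 29.2, 28.7 and 31.9 RPKM in DMSO and 13.5, 15.4 and 17.7 RPKM in RUNXi (log2 fold change -0.95, SE 0.08, adjusted p = 4.45e-05). GALM, the galactose mutarotase (ENSG00000143891, chr2:38666081-38741237, plus strand), measured 76.4, 71.1 and 74.1 RPKM in DMSO and 39.0, 40.4 and 40.4 RPKM in RUNXi (log2 fold change -0.88, SE 0.03, adjusted p = 3.3e-08). AMPD1, an AMP deaminase of the purine nucleotide cycle best known from muscle, measured 24.6, 24.3 and 21.03 RPKM in DMSO and 13.0, 12.5 and 12.9 RPKM in RUNXi (log2 fold change -0.85, SE 0.08, adjusted p = 0.000163). In these 3 genes the RUNXi mean lay at 51.9% to 55.0% of the DMSO mean, with the widest spread between RUNXi samples in ID1. MYADML2 measured 4.98, 4.84 and 4.46 RPKM in DMSO and 2.26, 2.27 and 2.08 RPKM in RUNXi (log2 fold change -1.08). It overlaps PYCR1, an enzyme of proline synthesis, on the same strand, and PYCR1 fell as well (-0.41), so reads of the pair could have been split by the counting. Further genes among the 20 largest falls were CPQ, a secreted peptidase (-0.89), SAPCD2, a regulator of spindle orientation (-0.88), UBALD2 (-0.80), FAM43A (-0.93), LOC102724548 (-1.13), C6orf226 (-0.85) and C3AR1, the receptor of complement C3a (-0.81). C3AR1 lost its call without DMSO replicate 1, 2 or 3 or RUNXi replicate 3, with adjusted p from 0.0616 to 0.115. C6orf226 lost it without DMSO replicate 1 or 3 or RUNXi replicate 1 or 3 (adjusted p of up to 0.170), and LOC102724548 without DMSO replicate 2 or 3 or RUNXi replicate 1 or 3 (up to 0.109).

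MAF, a transcription factor activated by translocation in some myelomas, measured 5.42, 5.98 and 6.27 RPKM in DMSO and 3.94, 4.85 and 4.54 RPKM in RUNXi (log2 fold change -0.40, SE 0.07, adjusted p = 0.0101). Its call did not hold without RUNXi replicate 1, where the log2 fold change was -0.32 and under the threshold. MAF and ITGB7 were the only calls among 9 tested genes of the t(4;14) and D cyclin list, which had a median of -0.09. IL10RA, the ligand-binding chain of the IL-10 receptor, fell from 6.23 to 6.52 RPKM in DMSO to 4.22 to 4.79 RPKM in RUNXi (log2 fold change -0.49), against 3 rises in the same list of 31 receptor and signalling genes, IL6R (0.46), LIFR (0.36) and CXCR4 (0.32). LIFR lost its call without DMSO replicate 1 (0.30), and CXCR4 without DMSO replicate 2 (0.32) or RUNXi replicate 1 (0.31). TLR4, the receptor for lipopolysaccharide, which was chosen after its values were seen, measured 3.18, 3.44 and 3.41 RPKM in DMSO and 1.96, 2.10 and 1.94 RPKM in RUNXi (log2 fold change -0.71). DDIT4, an inhibitor of mTORC1 (-0.50), and SLC7A11, the cystine importer (-0.46), were the calls among 30 ATF4 and stress response genes tested, 25 of which had a value below 0 (median -0.12).

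**Figure D2:**
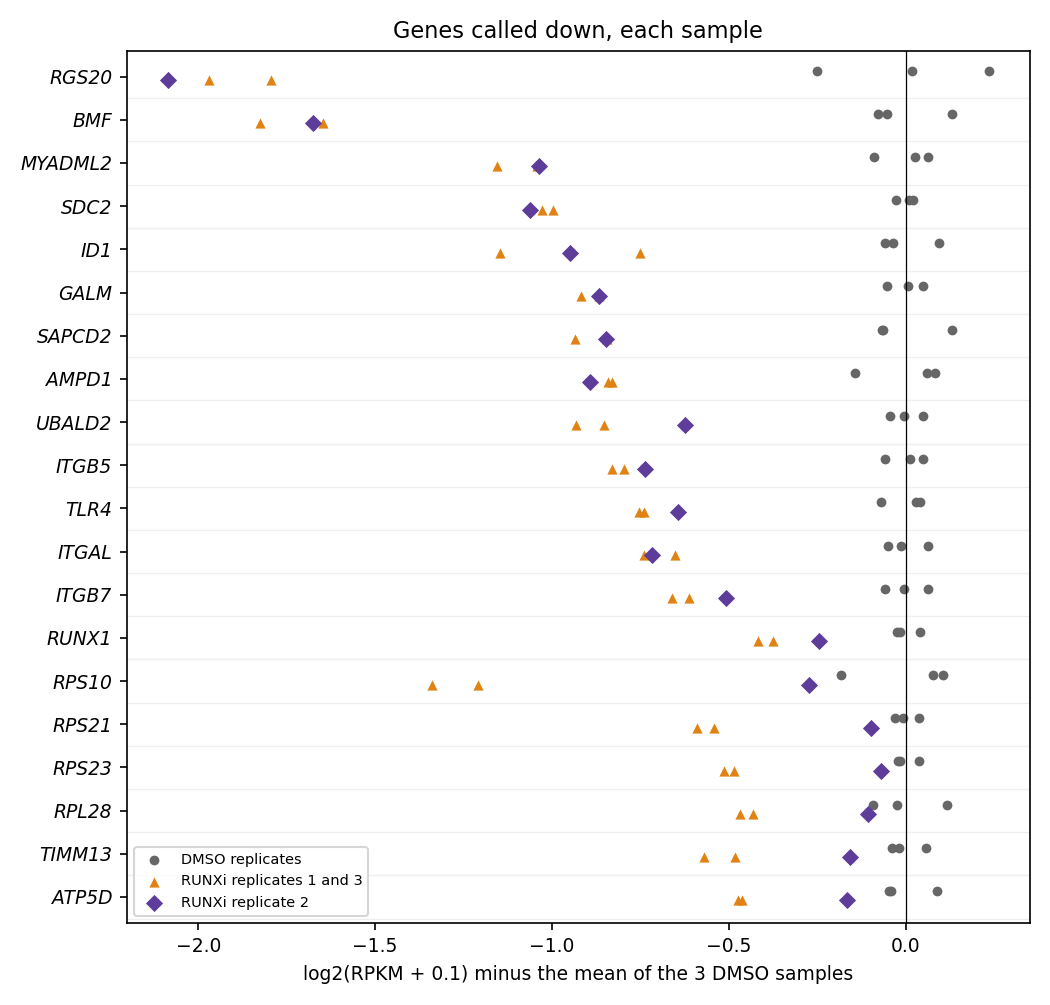
RPKM of lowered genes in each sample as log2 difference from the DMSO mean. Circles are the 3 DMSO replicates, triangles RUNXi replicates 1 and 3, and diamonds RUNXi replicate 2; for RGS20, BMF and SDC2 all RUNXi symbols lie at -0.9 or lower, whereas for RPS10 and RPS21 the diamond lies near DMSO.

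The same agent and dose were also applied on top of LEN, and LEN+RUNXi minus LEN shares no sample with RUNXi minus DMSO. Both came from the same fit of all 12 samples, with a common estimate of each gene's spread and a common filter for testing. The calls of both comparisons are therefore not independent of each other. In fits to only the samples compared fewer rises were shared, as given at the end. In that comparison 91 genes were called down (0.81% of all genes tested) and 98 up (0.872%). Of the 122 genes lowered by AI-10-104 alone, 102 had a value below 0 with LEN present and 53 were called down, 43.4% of the 122 and 58.2% of the 91, and their median log2 fold change was -0.29 against 0.02 over all genes. Of the 77 raised genes, 74 had a value above 0 and 34 were called up, 44.2% of the 77 and 34.7% of the 98, with a median of 0.30. For the leading falls the sizes with LEN were -1.77 for RGS20, -1.76 for BMF, -1.41 for MYADML2, -0.82 for SDC2, -0.79 for ID1, -0.88 for GALM, -1.12 for AMPD1, -0.60 for ITGB5, -0.76 for ITGAL, -0.44 for ITGB7 and -0.80 for TLR4, all called. FAM43A (-0.49), C3AR1 (-0.54), DDIT4 (-0.26) and C6orf226 (0.22) were not called there.

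A difference between the 2 effects was tested as an interaction. With limma 0 of 11241 genes passed an adjusted p of 0.05, the smallest being 0.155, while 1621 had an unadjusted p under 0.05, and limma's voom on whole reads called 3. Without RUNXi replicate 2 limma called 540, so the count rests on that library. The sizes of the difference are therefore known only within the replicate error. LOC730098, chosen after its values were seen, was the 1 gene called in opposite directions: it measured 0.809, 0.820 and 0.794 RPKM in DMSO and 0.477, 0.553 and 0.470 RPKM in RUNXi, but 0.559, 0.476 and 0.441 RPKM in LEN and 0.840, 0.924 and 0.769 RPKM in LEN+RUNXi. Its call in RUNXi against DMSO was lost in 5 of the 6 fits that left out a single sample, each except the one without RUNXi replicate 2, with adjusted p of up to 0.0935.

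**Figure D3:**
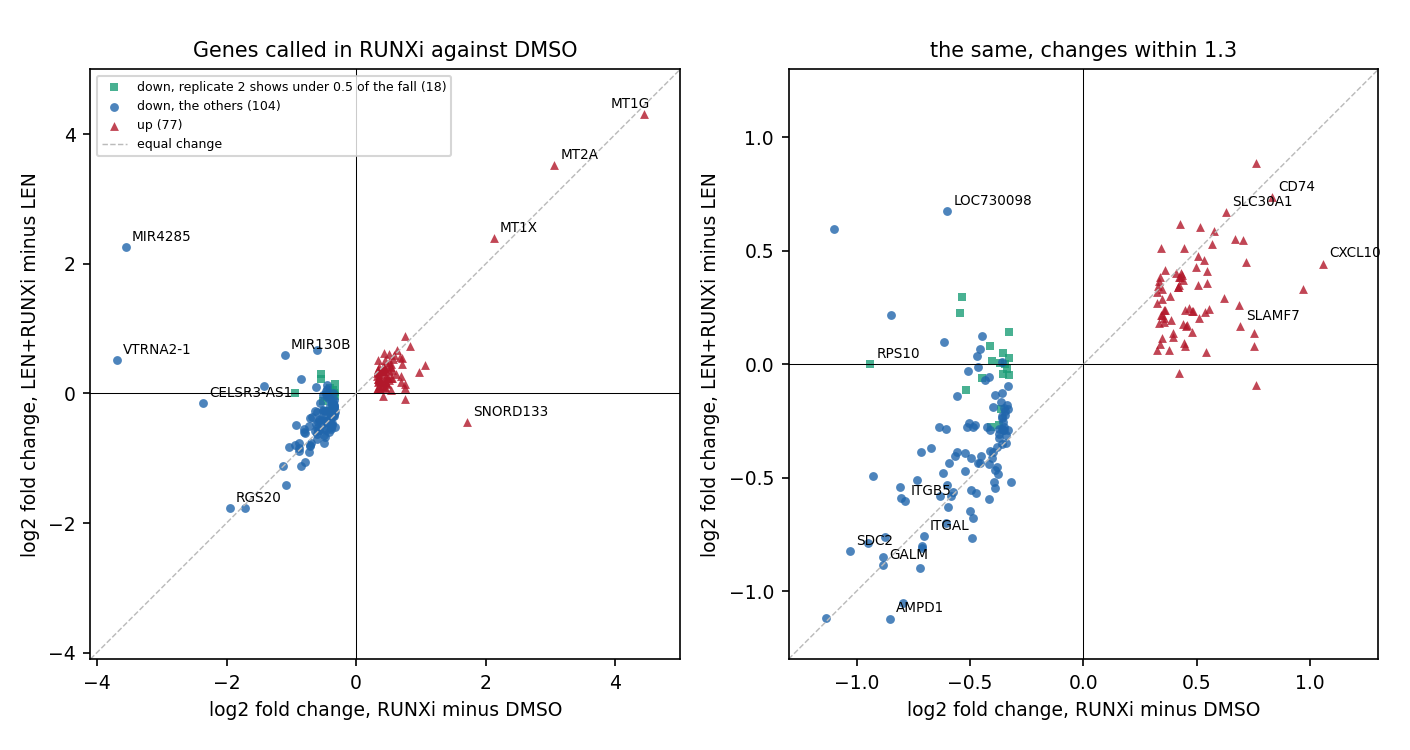
Log2 fold change of the genes called in RUNXi against DMSO (x axis) plotted against their log2 fold change in LEN+RUNXi against LEN (y axis), which uses other samples; the right panel enlarges changes within 1.3 of 0. Squares are the 18 lowered genes in which RUNXi replicate 2 showed under 0.5 of the fall of replicates 1 and 3, circles the other 104 lowered genes and triangles the 77 raised genes; the dashed line marks equal change, and 102 of 122 lowered and 74 of 77 raised genes lie on the same side of 0 in both.

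RUNXi replicate 2 stood apart from replicates 1 and 3. Over 7028 genes above 5 RPKM, the SD of its log2 difference from the mean of the other replicates of its group was 0.150, compared with 0.105 and 0.106 for RUNXi replicates 1 and 3 and a range of 0.0793 to 0.118 over the other 11 samples of the series. Its difference from its group followed the GC content of the genes (Spearman 0.441 across 6910 genes of the same libraries) and, less so, their length (-0.238), with values for GC of -0.322 and -0.348 in RUNXi replicates 1 and 3 and of -0.590 to 0.677 in DMSO. The part of GC content in the results was not tested beyond the corrected fits. As a description across 7028 genes, the change from the shared DMSO mean had a Pearson correlation of 0.839 between RUNXi replicates 1 and 3, and of 0.492 and 0.481 between replicate 2 and each of them. Against the LEN+RUNXi replicates, whose changes were taken from the LEN mean, the order was the other way round: 0.515 to 0.607 for RUNXi replicate 2, 0.213 to 0.268 for replicate 1 and 0.205 to 0.312 for replicate 3. Which RUNXi replicates are nearer to the effect of the agent cannot be told apart in these samples.

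Leaving out RUNXi replicate 2 changed the list of falls more than leaving out any other sample. Without it 299 genes were called down (2.66% of those tested) and 144 up (1.28%), compared with 71 to 97 down and 46 to 67 up without each of the other 5 samples. Of the 299 genes, 118 were also called with all replicates and 181 were gained. The 118 genes had median changes of -0.52, -0.45 and -0.49 in RUNXi replicates 1, 2 and 3, a median of -0.29 with LEN present, and 51 of them (43.2%) were called down there. The 181 gained genes had median changes of -0.42, -0.06 and -0.41, with RUNXi replicate 2 inside the DMSO range in 75 of them, a median of 0.04 with LEN present, and 3 of them (1.66%) called down there. The gained genes were shorter, with a median length of 1683 bases against 3297 bases in the 118 and 3715 bases over all genes tested. Of the 144 raised genes without replicate 2, 71 were gained, with median changes of 0.41, 0.17 and 0.40 and 1 called up with LEN present. In both directions the split used the values of RUNXi replicate 2. The medians of the RUNXi replicates therefore follow in part from the selection, while the changes with LEN present did not define it.

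**Figure D4:**
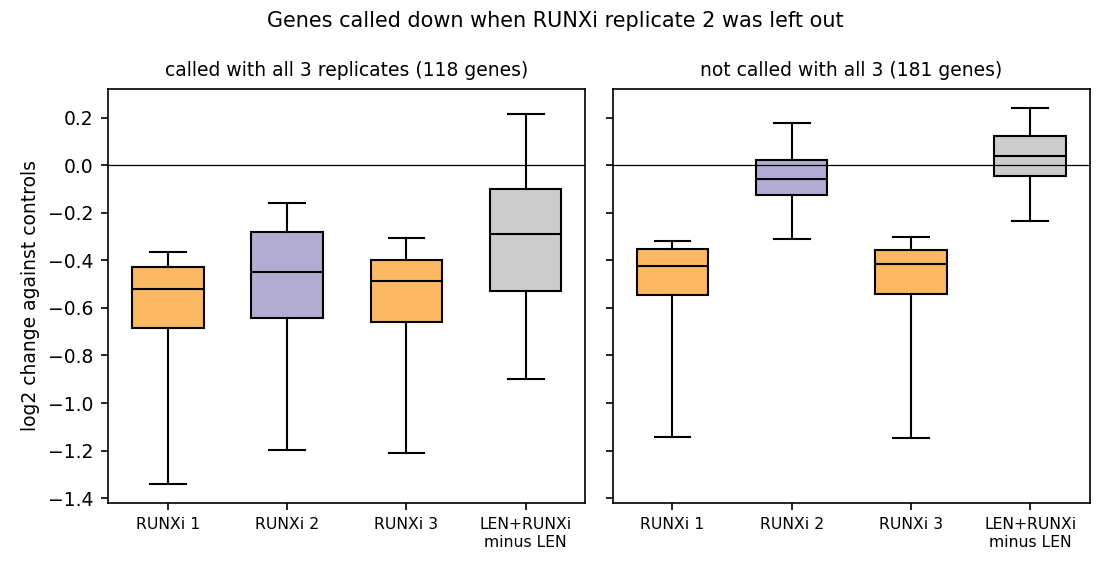
Genes called down without RUNXi replicate 2, split into 118 genes also called with all 3 replicates (left) and 181 genes not called with all 3 (right). Because the split used RUNXi 2, its position in each panel follows in part from the selection. Boxes show the quartiles and median, and whiskers the 5th to 95th percentile, of the log2 change of each RUNXi replicate from the DMSO mean and of LEN+RUNXi from LEN; in the right panel the medians of RUNXi 2 and of LEN+RUNXi lie at -0.06 and 0.04.

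Among the 122 falls called with all replicates, 18 had a fall in RUNXi replicate 2 of less than 0.5 of the mean fall of replicates 1 and 3. The median changes of these 18 genes were -0.48, -0.16 and -0.49, and with LEN present their median was 0.00, 9 had a value below 0 and 0 were called down. Of the 65 genes in which this share was 0.5 to 1, 28 were called down with LEN present (median -0.29), and of the 39 genes in which it was over 1, 25 (median -0.48). The 18 genes included 5 of the 76 cytosolic ribosomal protein genes tested, RPS10, RPS21, RPS23, RPL28 and RPL41, and also TIMM13, an import chaperone of mitochondria, and ATP5D, a subunit of ATP synthase.

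RPS21 measured 1290, 1229 and 1248 RPKM in DMSO and 863, 1173 and 834 RPKM in RUNXi (log2 fold change -0.41, adjusted p = 0.0437), so that replicate 2 lay just below DMSO and the other replicates far below both. RPS10 measured 7.24, 5.90 and 7.10 RPKM in DMSO and 2.59, 5.54 and 2.85 RPKM in RUNXi (-0.94, adjusted p = 0.0427), and it overlaps the readthrough gene RPS10-NUDT3 on the same strand, so reads could have been split between them. RPS23 measured 76.8, 74.0 and 73.7 RPKM in DMSO and 53.4, 71.3 and 52.3 RPKM in RUNXi (-0.36, adjusted p = 0.0498). With LEN present the log2 fold changes of these 3 genes were 0.08, 0.00 and -0.04. RPS21, RPS10, RPS23 and RPL28 (-0.34) kept their call in only 1 of the 6 fits that left out a single sample, the one without RUNXi replicate 2, and had adjusted p from 0.0562 to 0.199 in the others. RPL41 (-0.35) lost its call only without RUNXi replicate 3 (-0.30). Over the 76 ribosomal protein genes the median was -0.11, with 66 below 0, and the medians in RUNXi replicates 1, 2 and 3 were -0.14, -0.05 and -0.15. With all replicates voom called 10 of them, and 43 had an unadjusted p under 0.05 in limma. Without RUNXi replicate 2 there were 13 calls down and 1 up, and with LEN present the median was 0.00, with 0 calls by limma, 1 by voom and 4 genes at an unadjusted p under 0.05. RPL7 (-1.02, adjusted p = 0.0672) and TXNDC5 (-0.88, adjusted p = 0.0823) had the same pattern over the samples and were called by voom but not by limma.

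Nuclear respiratory chain subunits had a median of -0.06 over 58 genes, with ATP5D as the single call (-0.37) and medians of -0.10, 0.01 and -0.06 in the RUNXi replicates. Without RUNXi replicate 2 the calls were 5 down, NDUFA2, NDUFS6, COX6A1, ATP5D and ATP5E, whose log2 fold changes with LEN present were 0.00 to 0.35. ATP5D lost its call without DMSO replicate 1 or RUNXi replicates 1 or 3 (adjusted p of 0.0742 to 0.0806). Replication-dependent histone genes split the replicates the other way, with 0 of 16 called by limma, 1 by voom and 5 at an unadjusted p under 0.05, a median of 0.15 and medians of 0.52, -0.15 and 0.27 in RUNXi replicates 1, 2 and 3. Limma called 3 of them up without RUNXi replicate 2. Small nuclear and Cajal body RNAs were among the genes in which replicate 2 lay farthest below the others. Both sets of 8 genes farthest from the others were mostly small RNAs, and the 8 in which replicate 2 lay highest, such as MIR5581 (1, 9 and 0 reads in RUNXi) and SNORD82 (0, 8 and 2 reads), had at most 9 reads in a RUNXi sample. RNVU1-14, a U1 variant RNA, measured 17.1, 3.51 and 16.1 RPKM in RUNXi against 6.22, 5.04 and 2.86 RPKM in DMSO, and SCARNA2 measured 10.2, 2.74 and 11.5 RPKM against 4.70, 4.25 and 4.36 RPKM. RAB26, a small GTPase of secretory granules, measured 2.76, 0.743 and 2.82 RPKM in RUNXi and 0.902, 0.810 and 0.732 RPKM in DMSO. In these 3 genes RUNXi replicates 1 and 3 were above DMSO and replicate 2 was not, and none was called by limma with all replicates.

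The falls of largest fitted size rested on few reads. VTRNA2-1, a small noncoding RNA, had 8, 5 and 1 reads in the DMSO samples and 0 in each RUNXi sample, and MIR4285 had 3, 5 and 1 reads and 0. In both, a DMSO library also lay under the floor of 3 reads per library, so the fitted values of -3.69 and -3.56 give no bound. CELSR3-AS1, an antisense RNA, had 5, 10 and 5 reads in DMSO and 0, 1 and 2 in RUNXi, at least 2.00-fold lower against 3 reads per library. SNORA2A had 4, 5 and 4 reads against 1, 2 and 1, and MIR130B had 8, 12 and 7 against 3, 4 and 4. None of these 5 genes was called with LEN present, and each lost its call in fits that left out a single sample, with adjusted p from 0.0503 to 0.122. In all, 6 lowered and 5 raised genes had a mean under 20 reads.

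The rises were led by genes of zinc handling. Metallothioneins are small cysteine-rich proteins that bind zinc and copper, and their transcription is driven by the zinc-sensing factor MTF1 through metal response elements (MRE). MT2A (ENSG00000125148, chr16:56608584-56609497, plus strand) measured 15.4, 19.3 and 15.5 RPKM in DMSO and 143, 144 and 130.0 RPKM in RUNXi, 8.33 times the DMSO level (log2 fold change 3.06, SE 0.07, adjusted p = 5.61e-10). MT1X (ENSG00000187193, chr16:56682470-56684196, plus strand) measured 36.0, 32.7 and 28.2 RPKM in DMSO and 137, 154 and 131 RPKM in RUNXi (log2 fold change 2.12, SE 0.08, adjusted p = 3.3e-08). RUNXi replicate 2 rose as far as the others in both. MT1G had 0, 0 and 1 reads in DMSO and 29, 39 and 18 reads in RUNXi, at least 10.0-fold higher against 3 reads per library. SLC30A1, the zinc exporter of the plasma membrane, measured 26.4, 27.7 and 25.9 RPKM in DMSO and 39.4, 40.9 and 43.6 RPKM in RUNXi (log2 fold change 0.63, SE 0.05, adjusted p = 2.57e-05). All 4 were also called up with LEN present, at 3.52 for MT2A, 2.40 for MT1X and 0.67 for SLC30A1, while the fitted value of MT1G depends on the pseudocount. They were the only calls among 16 metallothionein and zinc genes tested, whose median was 0.11. With 0, 0 and 1 reads in DMSO, MT1G reached the level for testing through groups in which it was high. Its place among the genes tested thus depended on its rise. MT1E, under the level for testing, was at 0.0376, 0.0780 and 0 RPKM in DMSO and 0.932, 0.440 and 0.458 RPKM in RUNXi, and metallothionein copies share sequence, so reads may have been split between them.

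The sequences before these genes are shown because MT2A and MT1X are the 2 raised metallothioneins with reads in every sample and a window in the table, and LACC1 because it was the only lowered gene with more than 1 match to a RUNX motif, a choice made after its values were seen. Each is the 250 bases before the RefSeq start (GRCh38.p14), at chr16:56608334-56608583 (plus strand) for MT2A, chr16:56682220-56682469 (plus strand) for MT1X and chr13:43878928-43879177 (plus strand) for LACC1. Capitals mark matches on either strand to the MRE letters TGCACNC or TGCGCNC in MT2A and MT1X, and to the RUNX letters TGTGGT or TGCGGT in LACC1.
MT2A: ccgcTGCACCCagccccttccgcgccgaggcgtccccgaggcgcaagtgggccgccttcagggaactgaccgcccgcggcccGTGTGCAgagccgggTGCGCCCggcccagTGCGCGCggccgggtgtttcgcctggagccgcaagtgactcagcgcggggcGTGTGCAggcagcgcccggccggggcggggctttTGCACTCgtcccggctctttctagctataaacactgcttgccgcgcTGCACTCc
MT1X: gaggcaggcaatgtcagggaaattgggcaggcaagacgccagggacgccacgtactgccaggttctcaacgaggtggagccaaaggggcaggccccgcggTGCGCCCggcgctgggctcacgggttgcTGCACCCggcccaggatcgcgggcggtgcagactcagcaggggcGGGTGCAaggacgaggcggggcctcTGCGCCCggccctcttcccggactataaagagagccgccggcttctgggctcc
LACC1: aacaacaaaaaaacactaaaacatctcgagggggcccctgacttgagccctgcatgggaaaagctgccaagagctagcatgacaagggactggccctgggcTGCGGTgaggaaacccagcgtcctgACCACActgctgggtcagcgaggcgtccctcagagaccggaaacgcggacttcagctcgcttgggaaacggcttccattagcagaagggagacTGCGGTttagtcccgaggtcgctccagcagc

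MT2A held 7 MRE matches and MT1X 4. At least 4 were found in 0.366% of all 27305 promoter windows of this length and in 0.519% of the 8474 tested genes with a window, compared with 0 of 92 lowered and 4 of 53 raised genes, MT2A, MT1X, INSIG1 and DGKG. SLC30A1 held 1, and 1 or more were found in 34.1% of tested genes. LACC1 held 3 RUNX matches, and it measured 2.43, 2.66 and 2.64 RPKM in DMSO and 1.84, 1.77 and 1.79 RPKM in RUNXi (log2 fold change -0.49, SE 0.07, adjusted p = 0.00247) and was called down with LEN present (-0.77). At least 1 RUNX match was found in 15 of 92 lowered genes (16.3%), 11 of 53 raised genes (20.8%), 15.1% of tested genes and 16.1% of all windows. AMPD1 held 1, and BMF, ITGB5, ITGB7, ID1, MYADML2, GALM and RUNX1 held 0. A match is a description of the letters only, and these windows are short.

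Genes of antigen presentation by MHC class II rose. CD74, the invariant chain that guides class II molecules (ENSG00000019582, chr5:150401637-150412969, minus strand), measured 34.6, 32.7 and 31.3 RPKM in DMSO and 60.0, 56.1 and 59.2 RPKM in RUNXi (log2 fold change 0.83, SE 0.06, adjusted p = 7.29e-06). CIITA, the transcriptional coactivator of class II genes, measured 2.20, 2.14 and 2.27 RPKM in DMSO and 3.08, 3.30 and 3.19 RPKM in RUNXi (0.51, adjusted p = 0.000345). HLA-DRB1 measured 0.501, 0.606 and 0.440 RPKM in DMSO and 0.750, 1.05 and 1.05 RPKM in RUNXi (0.76), and lost its call without RUNXi replicate 3 (0.69, adjusted p = 0.0537). These were 3 of 6 class II genes tested, with a median of 0.41, and all 3 were called with LEN present (0.74, 0.61 and 0.89). HLA-DPA1, HLA-DMA and HLA-DMB, and the class I genes HLA-E and HLA-F of the same region, were listed at 0 in all 6 samples, so values of this region may be incomplete. Of the 10 class I genes tested, 0 were called by limma or by voom, and 4 had an unadjusted p under 0.05.

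Of 30 sterol synthesis genes tested, 6 were called up and 0 down, 27 had a value above 0 and the median was 0.18. INSIG1, which retains the sterol sensor SCAP in the endoplasmic reticulum, measured 115, 121 and 137 RPKM in DMSO and 172, 178 and 194 RPKM in RUNXi (0.54, SE 0.08, adjusted p = 0.00202). STARD4 (0.48), IDI1 (0.36), HMGCS1 (0.34) and MVK (0.34) rose as well, and each of these 4 lost its call in 2 to 4 fits that left out a single sample, with adjusted p of up to 0.111 for IDI1. With LEN present the list's median was 0.17 and INSIG1 (0.41) was called but none of these 4.

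SLAMF7, a surface receptor of plasma cells, measured 17.9, 20.2 and 19.7 RPKM in DMSO and 31.0, 29.6 and 32.8 RPKM in RUNXi (log2 fold change 0.69, SE 0.06, adjusted p = 0.000113), and was at 0.17 and not called with LEN present. It was the only call among 24 plasma cell genes tested, whose median was 0.08, while without RUNXi replicate 2 there were 3 calls up and 1 down. ANXA6, a calcium-dependent membrane-binding protein, measured 5.22, 4.74 and 4.90 RPKM in DMSO and 8.37, 8.41 and 7.79 RPKM in RUNXi (0.72), and was called with LEN present (0.45). TP53INP1, a stress protein and target of p53, rose by 0.70, the only call among 18 p53 target genes tested. Of 17 NF-κB subunit and feedback genes, BIRC3 (0.55), NFKB2 (0.34) and RELB (0.34) rose and were called with LEN present. NFKB2 lost its call without DMSO replicate 3 (0.30), and RELB in 5 of 6 fits that left out a single sample (0.26 to 0.36, adjusted p of up to 0.0778). TSC22D3 (0.50) and SGK1 (0.42), both known from the glucocorticoid response, measured 6.47 to 7.24 and 8.62 to 8.73 RPKM in DMSO and 9.44 to 10.0 and 11.4 to 11.8 RPKM in RUNXi, and were called with LEN present. With CXCR4, described above, they were the rises in a list of 13 that also held DDIT4, which fell; without RUNXi replicate 2 there were 2 falls. Of 21 interferon-induced genes tested, IFIH1, a sensor of double-stranded RNA (0.50), and CXCL10 (1.06) were called. CXCL10 rested on levels of 0.218 to 0.425 RPKM in DMSO, so it reached the level for testing through other groups. It lost its call in 5 of 6 fits that left out a single sample (adjusted p of 0.0654 to 0.162).

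The remaining genes among the 12 largest rises were low or noncoding. SNORD133, a small nucleolar RNA, had 7, 4 and 9 reads in DMSO and 20, 13 and 32 reads in RUNXi (log2 fold change 1.71, adjusted p = 0.0466), and lost its call without DMSO replicate 1 or 2 or RUNXi replicate 1 or 3 (adjusted p of up to 0.176). SCOC-AS1, an antisense RNA, had 23, 20 and 14 reads in DMSO and 31, 46 and 39 reads in RUNXi (0.97), and was called without each sample in turn. LOC102723806 (0.76), SNORA1 (0.75) and SNORA65 (0.75) lost their calls without RUNXi replicate 3, LOC102723806 also without DMSO replicate 1 or 3 and SNORA65 without DMSO replicate 2, with adjusted p of up to 0.0904. With LEN present these 5 genes had log2 fold changes from -0.44 to 0.33, and none was called by limma.

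**Figure D5:**
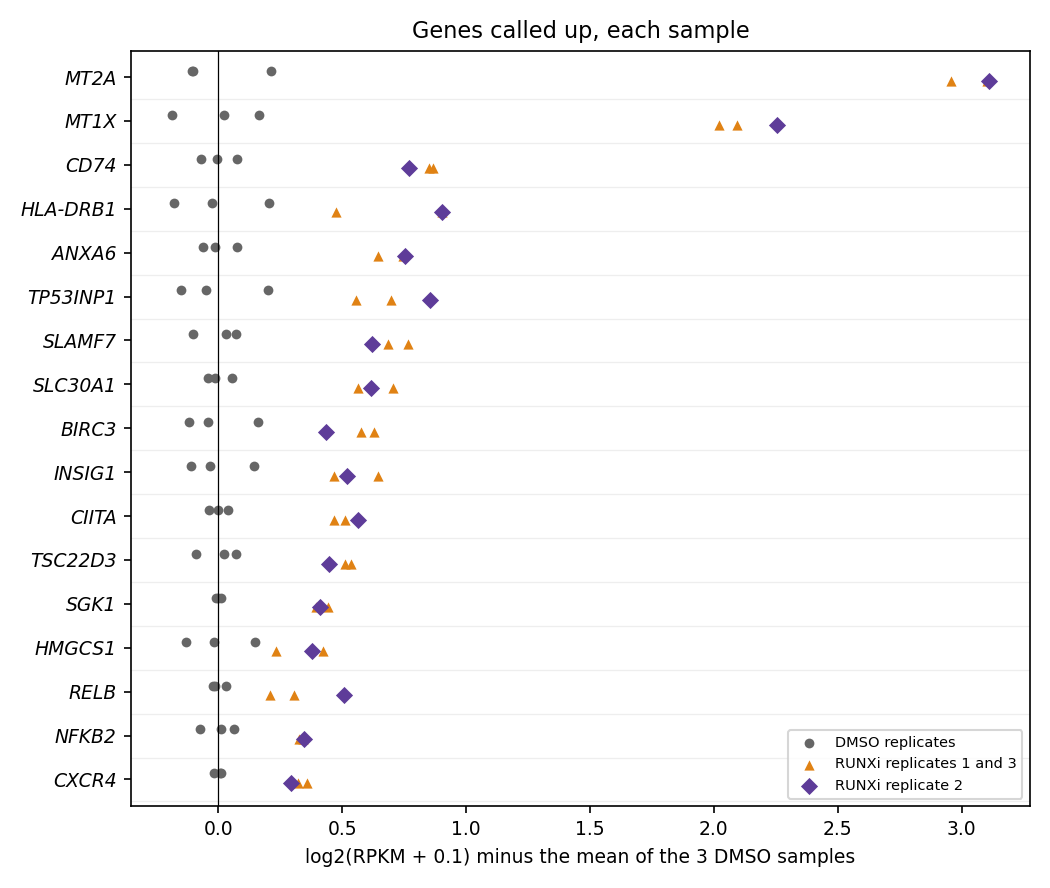
RPKM of raised genes in each sample as log2 difference from the DMSO mean, with the same symbols as for the falls (circles DMSO, triangles RUNXi replicates 1 and 3, diamonds RUNXi replicate 2). MT2A and MT1X lie farthest to the right, and the RUNXi symbols of SLC30A1 and CD74 lie to the right of all their DMSO symbols.

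The RUNX genes themselves changed little. RUNX1 (ENSG00000159216) measured 7.85, 8.22 and 7.90 RPKM in DMSO and 6.14, 6.73 and 5.96 RPKM in RUNXi (log2 fold change -0.35, SE 0.06, adjusted p = 0.00873), with LEN present it was at -0.21 and not called, and without RUNXi replicate 3 the value was -0.31 and under the threshold. RUNX2 measured 14.8, 15.7 and 15.8 RPKM in DMSO and 13.7, 14.6 and 14.3 RPKM in RUNXi (-0.12, adjusted p = 0.121). RUNX3 measured 19.9, 18.5 and 17.8 RPKM in DMSO and 17.8, 19.1 and 17.4 RPKM in RUNXi (-0.05, adjusted p = 0.609), and CBFB 79.8, 85.1 and 91.2 RPKM and 79.5, 87.9 and 83.6 RPKM (-0.03, adjusted p = 0.8). Neither RUNX3 nor CBFB separated the groups. RUNX1 was the only call among 15 RUNX factors and cofactors tested (median -0.03). Of 42 genes known as RUNX targets in blood cells, 12 were expressed highly enough to be tested. They had a median of -0.04, and ITGAL and ITGB7 were the calls. The list was chosen with earlier results of these data known. Both genes were also counted in the integrin and adhesion list. These calls therefore do not show whether RUNX targets fell more often than other genes, which was not tested.

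LEN directs the IKAROS factors IKZF1 and IKZF3 to degradation through cereblon. The list of IKAROS family factors, cereblon ligase subunits and genes related to them had 0 calls by limma and 0 by voom among 14 tested (median 0.03), of which 5 had an unadjusted p under 0.05. Without RUNXi replicate 2 limma called 2 of them down, IKZF3 (-0.36) and the ligase subunit RBX1 (-0.36). IKZF3 measured 22.4, 23.0 and 23.3 RPKM in DMSO and 18.4, 20.1 and 17.3 RPKM in RUNXi, with a log2 fold change of -0.30 (adjusted p = 0.00705) that stayed under the fold threshold with all replicates. IKZF1 measured 13.5, 13.3 and 13.0 RPKM in DMSO and 14.7, 14.2 and 14.7 RPKM in RUNXi (0.13, adjusted p = 0.133). IRF4 (0.07), MYC (0.15) and CRBN (0.12) were not called.

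Cell cycle and housekeeping lists held few calls. Limma called 0 of 37 DNA replication genes, 0 of 30 proteasome subunits, 0 of 34 nucleolar ribosome biogenesis genes and 0 of 25 unfolded protein response chaperones. An unadjusted p under 0.05 was reached by 14, 9, 8 and 4 of them, and voom called 1, CCNE2 of the DNA replication genes. The share of all tested genes at this unadjusted level is not given here. Such counts, here and for the lists above, therefore do not show whether a list stands out. Without RUNXi replicate 2 limma called 1 up and 1 down in the DNA replication list, 1 down in the nucleolar list, 1 up and 1 down in the chaperone list and 0 proteasome subunits. Single calls were found for HSPA4L among 17 cytosolic heat shock genes (0.55), ALDOC among 23 glycolysis and hypoxia genes (0.38), BHLHE40 among 12 clock genes (0.45) and LMNA, the A-type lamin, among 23 cytoskeleton genes (-0.40), and of these LMNA alone was also called with LEN present (-0.39). TGIF1, a repressor of TGF-β responses, fell beside ID1 in a list of 21 genes (-0.47), but not in fits without DMSO replicate 1 or 2 or RUNXi replicate 3 (adjusted p of up to 0.0534). Of 42 mitosis genes, HMMR (0.39) and FAM72A (0.39) rose and CDC25B (-0.34) fell, and CDC25B lost its call without DMSO replicate 1 (-0.29) and FAM72A without RUNXi replicate 1 or 3 (adjusted p of 0.0565 and 0.0501). Of 13 mitochondrially encoded genes tested, COX1 rose by 0.36, with 3375, 3873 and 3705 RPKM in DMSO and 5144, 4356 and 4528 RPKM in RUNXi, and lost its call in 5 of 6 fits that left out a single sample (adjusted p of 0.0653 to 0.156). One more gene of this list was called, down, without RUNXi replicate 2.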

How the data were processed

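The study isolated poly(A) RNA, prepared libraries with a directional kit (NEBNext Ultra Directional) and sequenced 3 biological replicates per condition on a NextSeq 500. The authors deposited RPKM values per gene beside the gene length in bases. The submitters' processing notes list FastQC, STAR, Cuffnorm and DESeq2 with GRCh38; the tool that counted reads on genes is not given in the sources used here. The plan had taken the values for FPKM. In every sample RPKM times length in kilobases added up to the same total and gave whole reads for 100% of values, so reads were computed back and ranged from 16352548 to 31386210 per sample over the series. Those reads serve for low counts, with 3 reads per library as the floor, and for voom; bounds against it cover counting error only, since molecular identifiers are not mentioned and reads may repeat a molecule.

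Values were taken as log2(RPKM + 0.1) for genes averaging 0.5 RPKM or more, and limma 3.58.1 under R 4.3.3 fitted all 12 samples together, giving each condition its own mean and using a variance trend. P-values were adjusted by Benjamini-Hochberg over every gene tested. The thresholds were an adjusted p of 0.05 and, except for the interaction, a log2 change of 0.32 in either direction. Fold changes are on the log2(RPKM + 0.1) scale, which understates those of low genes. Members and gene lists were chosen with earlier results of these data known. Named genes were the 20 largest falls and 12 largest rises among called genes without overlap, list members, and the 8 genes in each direction with a mean of at least 1 RPKM where RUNXi replicate 2 lay farthest from the others, leaving out genes with a date number as a name (28 in the table). Others are said to be chosen after their values were seen. TIMM13, DGKG and PYCR1 are such genes too. Values of 1 list member are not reported here.

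GENCODE 44 supplied positions and GC content: 23235 symbols matched directly, 1216 through an older symbol, 269 were ambiguous and 13758 unmatched. Promoter windows of 250 bases are from RefSeq. The study's methods state no pairing of samples with equal replicate numbers, and none was assumed. Alternatives set in the plan were other pseudocounts (1, 0.01), filters, scalings and thresholds, only the compared samples, no variance trend, the replicate block, voom, a length correction and leaving out each replicate; GC corrections (loess span 0.3), GC and length without RUNXi replicate 2, and a minimum mean of 20 reads were chosen after seeing the data. On simulated data for RUNXi against DMSO with 200 of 11242 genes changed, 169 were called with the right sign and 4 unchanged genes were called. With no change 0 of 11245 were called. These data gave all genes the same spread beyond counting error, no library that stood apart and no shift with GC content or length. The simulated counts therefore do not measure the error of the calls made here. Python 3.11.15, pandas 2.3.3, numpy 2.4.6, scipy 1.17.1 and matplotlib 3.10.9 were used.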

Additional observations from a re-analysis of the deposited data

How the results depend on the processing

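In 24 alternatives, over 1830 pairs of a named gene and an alternative, 1541 kept their call, 289 lost it and 0 reversed. A reversal was hardly possible, because the alternatives reused these samples and no called gene had overlapping groups. Of 77 named genes, 22 were called under every alternative that tested them. Leaving out single samples gave 46 to 144 raised and 71 to 299 lowered genes, with 26 to 34 and 43 to 54 of them called also with LEN present, and 0 to 540 genes with a different effect under LEN. The counts for raised and lowered genes were 52 and 75 without DMSO replicate 1, 59 and 74 without DMSO replicate 2, 48 and 71 without RUNXi replicate 1, 144 and 299 without RUNXi replicate 2, and 46 and 83 without RUNXi replicate 3. With GC content and gene length corrected and RUNXi replicate 2 left out, they were 139 and 204, and 294 genes differed under LEN. Fitted to only the 6 samples compared, 44 genes rose and 69 fell, and 21 rises were shared with LEN present, with fewer samples behind the estimate of spread. Without a fold threshold 235 rose and 277 fell (89 and 123 called in both), and at a log2 threshold of 0.58 these were 18 and 40 (6 and 21 in both). The test of a different effect under LEN called 1 gene without the variance trend, 1 with a minimum mean of 20 reads and 3 with voom. The cause of these shifts was not tested. All other planned settings kept the counts within 1.5 times, among them voom with 114 rises and 168 falls.

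DMSO and RUNXi samples of the same replicate number shared little deviation (correlations of 0.05, 0.00 and 0.02), and the numbers were not taken to pair them. These correlations cannot exclude a pairing, because the deviations within each group also followed the GC content of the genes. With the replicate block 89 genes rose and 139 fell, 37 and 57 were called in both, and 0 differed under LEN. Depth limits genes near the floor of 3 reads, where a missed change says nothing of its absence.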
